A study of Caenorhabditis elegans with 24 samples.

Results

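The genes *F11C3.1*, *F26B1.8*, *msrp-2* and *gipc-2* of *C. elegans* were selected on a large difference at 20°C between rescued animals and *hlh-30(tm1978)* mutants, 4 of the 46756 genes counted and of the 13482 that averaged at least 10 counts per library. All 4 passed that filter. The values that chose them are the counts of the 8 libraries of rescued animals and mutants at 20°C, so that comparison, and those of the same libraries with wildtype at 20°C, are given below as descriptions without a test. The libraries at 37°C and those of wildtype took no part in the choice and carry the tests of genotype and of heat in wildtype. Fits of heat in rescued animals and mutants also use the 20°C libraries behind the choice, so their p-values are not independent of it, and relations among the rescued or among the mutant libraries are given without a test. They were listed as genes raised in the rescue strain alone. That description held library by library for *F11C3.1*, whereas for *F26B1.8*, *msrp-2* and *gipc-2* some wildtype libraries reached the levels of rescued animals.

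RNA of whole day 1 adults, grown on *E. coli* OP50, was sequenced in 6 groups after 3 h at 37°C or 20°C. Rescued animals (strain LRL147) carried the deletion allele *hlh-30(tm1978)* together with a transgene in which the promoter and the 3′UTR of *rab-3* flank HLH-30 fused to GFP and 3XFLAG, which places the protein in neurons, and *unc-122p::RFP* as the visible marker of the injection. They are 1 transgenic line, so effects of the transgene, of the place it occupies and of anything else that differs between this line and the mutants cannot be told apart. *hlh-30(tm1978)* mutants (LRL31) carried the deletion with no transgene, and wildtype animals were N2 Bristol. Each group held 4 libraries from independent replicates of pooled worms, except wildtype at 20°C with 3, because 1 deposited file repeated another library and was left out. Totals were 11207383 to 28091186 counts per library. Values are CPM, counts scaled to the library size with the TMM method, and differences are log2 fold changes with their SE. Each SE was derived from the edgeR test, as the size of the log2 fold change divided by the square root of the F statistic. The targeted gene followed the labels: *hlh-30* was at 24.4 to 50.9 CPM in rescued libraries and 4.19 to 7.88 CPM in mutant libraries at 37°C, and at 57.4 to 117.1 CPM and 8.13 to 16.01 CPM at 20°C. Whole animals were extracted, so fewer cells of a type and less RNA per cell cannot be told apart in any value below.

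HLH-30 is the worm ortholog of TFEB, a helix-loop-helix transcription factor that enters the nucleus under stress and activates genes of autophagy and the lysosome. In *C. elegans*, extra DNA is introduced by injection into the gonad, where plasmids join into arrays that hold many copies of each promoter, coding region and 3′UTR. Reads of such copies and of the chromosomal gene fall on the same gene in a count table. A hermaphrodite makes sperm as a larva, then switches to oocytes, and the major sperm protein (*msp*) genes are transcribed while sperm form.

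*F11C3.1* (WBGene00008695) is a protein-coding gene on the plus strand of chromosome I, from 14867924 to 14871467 (WBcel235, the build of the files), with 1398 bases of exon. At 37°C it was counted at 298.4, 283.0, 465.5 and 294.1 CPM in rescued animals, against 6.58, 7.04, 5.37 and 5.82 CPM in mutants and 4.47, 4.99, 5.15 and 5.81 CPM in wildtype. At 20°C the values were 409.4, 529.1, 371.9 and 790.9 CPM in rescued animals, against 3.83, 4.12, 3.29 and 3.82 CPM in mutants and 3.59, 2.84 and 6.70 CPM in wildtype. Every rescued library was far above every library of the other genotypes, and the mutants and wildtype overlapped. These levels rest on 3494 to 12593 counts in rescued libraries and 39 to 161 counts in the others.

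*F11C3.1* was higher in rescued animals than in mutants at 37°C by a log2 fold change of 5.68 ± 0.20 (SE, 51.4-fold, edgeR adjusted p = 1.7e-09) and higher than in wildtype by 5.97 ± 0.21 (62.6-fold, edgeR adjusted p = 8.4e-08). Among the 13482 genes, the first of these was the highest fold change of that comparison. Mutants and wildtype differed by 0.28 ± 0.18 at 37°C, which did not pass the threshold of 0.05 (edgeR adjusted p = 0.43). In the comparison behind the choice, rescued animals against mutants at 20°C, the log2 fold change was 7.05 ± 0.29, also the first of 13482 genes. The lowest rescued library was 40.2-fold above the highest of the 15 other libraries. A separation of all 8 rescued libraries from all 15 others was met by 135 genes, 1.00% of those tested, and the next widest gap after *F11C3.1* was 2.84-fold, for *C40A11.8*. Both sides include 20°C libraries behind the choice, so the gap and the separation are descriptions.

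By level, the groups ranked rescued at 20°C (525.3 ± 189.3 CPM, SD, n = 4), rescued at 37°C (335.2 ± 87.1, n = 4), mutants at 37°C (6.20 ± 0.75, n = 4), wildtype at 37°C (5.10 ± 0.55, n = 4), wildtype at 20°C (4.38 ± 2.05, n = 3) and mutants at 20°C (3.77 ± 0.35, n = 4). Only the step from rescued animals to mutants exceeded the spread, since each other pair of neighbours in this order had libraries that overlapped. Per kilobase of exon, *F11C3.1* reached 239.8 ± 62.3 RPKM (SD, n = 4) in rescued animals at 37°C, above the 8.68 ± 4.58 RPKM of *F26B1.8*, the 22.4 ± 9.34 RPKM of *msrp-2* and the 14.8 ± 4.92 RPKM of *gipc-2* in the same libraries.

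**Figure D1:**
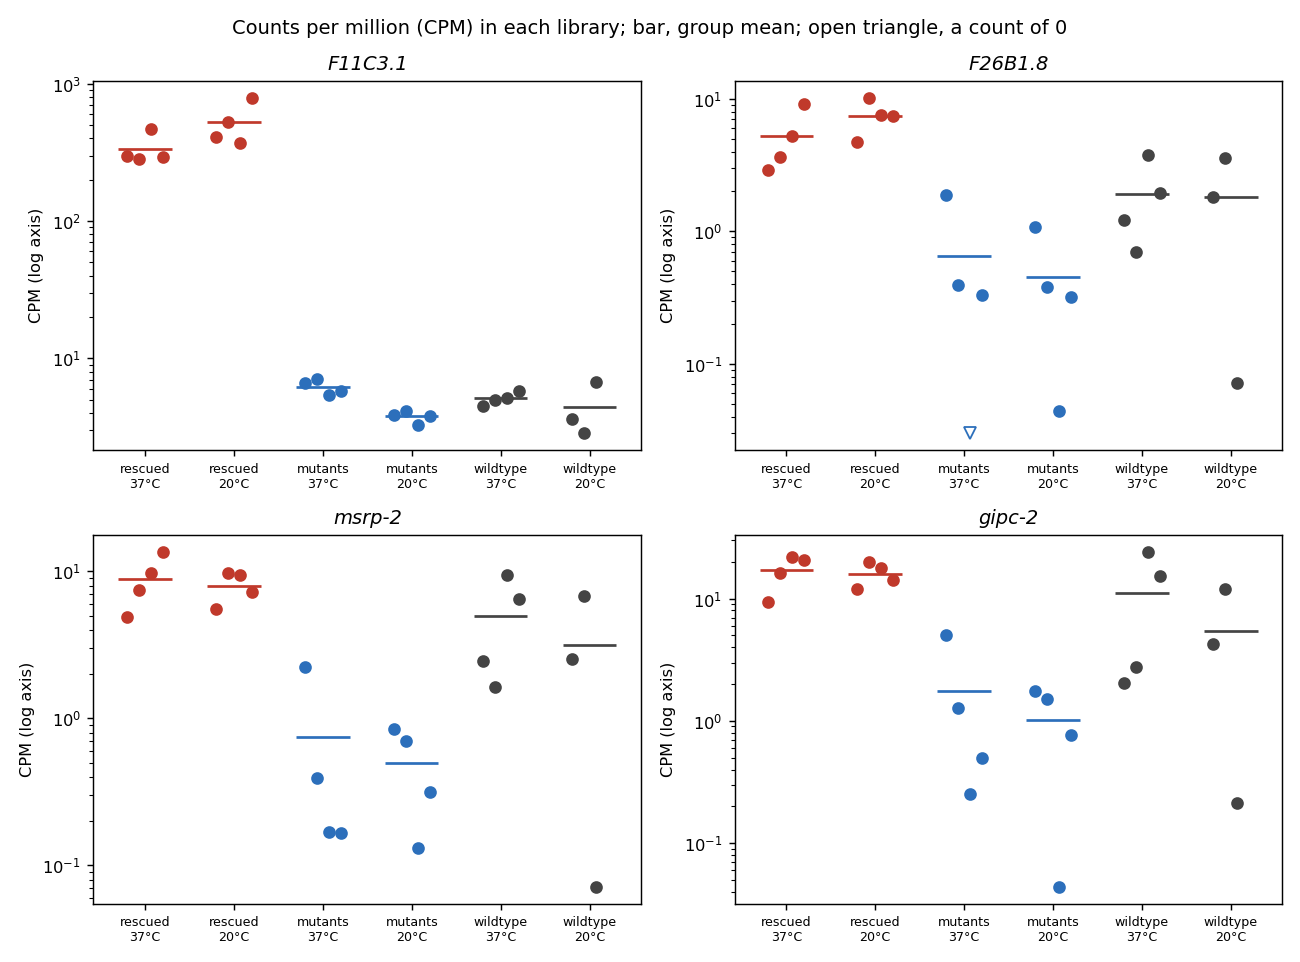
CPM on a log axis in each of the 23 libraries for the 4 genes, grouped by genotype and temperature, with the group mean as a bar. The 8 rescued libraries of F11C3.1 lie between 283.0 and 790.9 CPM and the other 15 between 2.84 and 7.04 CPM, whereas for the other genes some wildtype libraries lie within the range of rescued libraries or close below it.

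The neighbourhood of *F11C3.1* holds genes whose promoters or 3′UTRs are common parts of worm transgenes. Directly after it on the same strand, 644 bases beyond its end, begins *unc-122* (14872112 to 14875378), which encodes an olfactomedin-domain protein and whose promoter marks coelomocytes, the scavenger cells of the body cavity. That promoter drove the red fluorescent marker of the rescued line. On the other side, 4350 bases away, lies *unc-54*, the major myosin heavy chain of body wall muscle, and beyond it *aex-5*, a proprotein convertase of the defecation motor program.

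*unc-122* was at 2.05, 1.75, 3.80 and 1.91 CPM in rescued animals at 37°C, against 0.55 to 1.10 CPM in mutants and 0.51 to 1.38 CPM in wildtype. Its log2 fold change was 1.47 ± 0.36 against mutants (edgeR adjusted p = 0.0062) and 1.23 ± 0.38 against wildtype (edgeR adjusted p = 0.023). At 20°C it was also higher in rescued animals than in mutants, by 2.47 ± 0.46 (edgeR adjusted p = 0.0033). That fit uses the 8 libraries behind the choice of *F11C3.1*, beside which *unc-122* was looked at. Its p-value is therefore not independent of the choice, and this holds for every 20°C p-value or call of a neighbour below. Counts were low, with 22 to 98 per rescued library and 4 to 31 in the others. Neither of the other coelomocyte markers passed: *cup-4*, an ion channel-like protein of coelomocyte endocytosis, differed by -0.0056 ± 0.21 and *lgc-26* by 0.50 ± 0.31 between rescued animals and mutants at 37°C (edgeR adjusted p = 0.99 and 0.23). The summed level of all 3 markers, *unc-122* included, spanned 10.8 to 10.9 CPM in rescued libraries, against 7.48 to 8.74 CPM in those of mutants and 5.999 to 12.7 CPM in those of wildtype at 37°C, and no marker was at 0 throughout a group. So the rescued libraries lay above the mutant ones in this sum and within the wildtype range. Of the 3 markers, *unc-122* alone separated rescued from mutant libraries at 37°C. Those of *cup-4* overlapped, at 5.38 to 6.49 CPM in rescued animals and 4.32 to 6.55 CPM in mutants. *lgc-26* overlapped too, at 1.59 to 3.33 CPM and 1.34 to 2.24 CPM.

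*aex-5* rose as well, to 45.1 to 70.1 CPM in rescued animals at 37°C, against 11.1 to 14.1 CPM in mutants and 7.04 to 10.9 CPM in wildtype. The log2 fold change was 2.08 ± 0.16 against mutants (edgeR adjusted p = 1.7e-05) and 1.78 ± 0.26 at 20°C (edgeR adjusted p = 0.00082). *unc-54*, which lies between *aex-5* and *F11C3.1*, did not pass, with 0.42 ± 0.21 at 37°C (edgeR adjusted p = 0.12) and 0.37 ± 0.19 at 20°C (edgeR adjusted p = 0.19). Of the 10 nearest tested genes, *aex-5* and *unc-122* were higher in rescued animals than in mutants at both temperatures. The patched-related *ptr-23* (1.24 ± 0.26) and *kin-1*, a catalytic subunit of protein kinase A (0.66 ± 0.19), were higher at 37°C alone by the threshold, and *frm-1* (0.39 ± 0.10) at 20°C alone. The change of the difference with temperature did not pass for any of these, at 0.70 ± 0.38 for *ptr-23*, 0.39 ± 0.26 for *kin-1* and -0.45 ± 0.14 for *frm-1* (37°C minus 20°C, edgeR adjusted p = 0.58, 0.65 and 0.25). The odorant receptor-like gene *str-245*, which lies within *aex-5* on the opposite strand, was lower at 20°C by -1.35 ± 0.28 (edgeR adjusted p = 0.0057). The strand setting of the counting is not given in the sources used here, so reads of *aex-5* and *str-245* cannot be told apart.

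**Figure D2:**
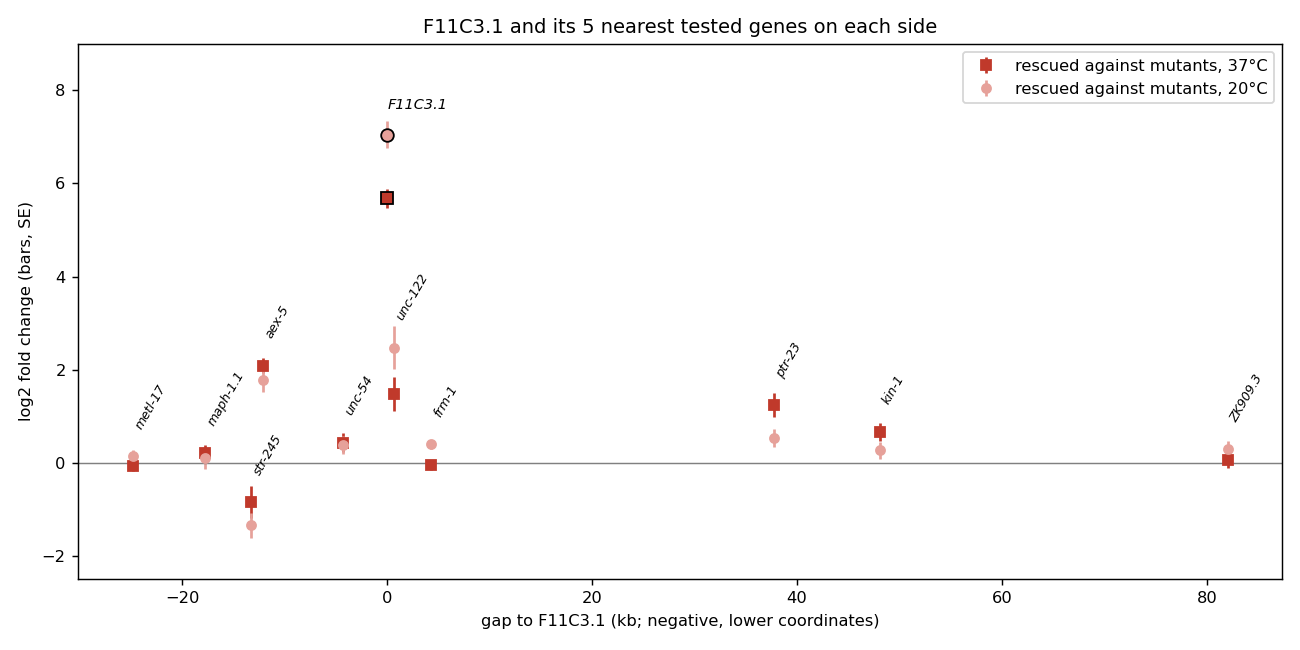
Log2 fold change of rescued animals against mutants (bars, SE) for F11C3.1, outlined in black, and its 5 nearest tested genes on each side, against the gap to F11C3.1 in kb. Squares are 37°C and circles 20°C. F11C3.1 stands at 5.68 and 7.05, unc-122 at 1.47 and 2.47 and aex-5 at 2.08 and 1.78, while unc-54 between them is at 0.42 and 0.37.

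*rab-3* and *hlh-30*, which like *unc-122* gave sequence to the injected DNA, were also higher in rescued animals. *rab-3*, a synaptic vesicle GTPase whose promoter and 3′UTR flank the transgene, had a log2 fold change against mutants of 3.41 ± 0.28 at 37°C (edgeR adjusted p = 2.3e-05) and against wildtype of 3.03 ± 0.39 (edgeR adjusted p = 0.00023). *hlh-30* itself was higher by 2.29 ± 0.27 against mutants and by 0.79 ± 0.24 against wildtype (edgeR adjusted p = 0.00013 and 0.021). So *hlh-30*, *rab-3* and *unc-122* all passed in the direction of rescued animals at 37°C, beside 16.5% of all genes tested. *aex-5*, which passed too, and *unc-54* are not named as parts of the injected DNA. The nearest tested genes that share no base with *rab-3* did not pass: *zipt-3* differed by 0.23 ± 0.14 and *hlh-14* by 1.17 ± 0.63 (edgeR adjusted p = 0.22 and 0.16). *damt-1*, which abuts *rab-3* and ends at the base where *rab-3* begins (5721791), did change. It was lower by -0.87 ± 0.14 (edgeR adjusted p = 0.00050).

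Among rescued libraries, *F11C3.1* varied together with these genes. Its highest library, replicate 4 at 20°C with 790.9 CPM, was also the highest for *unc-122* (5.59 CPM), *aex-5* (147.6 CPM), *hlh-30* (117.1 CPM) and *rab-3* (71.8 CPM). Replicate 3 at 37°C, the highest of its group with 465.5 CPM, was likewise the highest of that group for *unc-122* (3.80 CPM), *aex-5* (70.1 CPM), *hlh-30* (50.9 CPM) and *rab-3* (24.8 CPM). These libraries stood out in other genes too. Replicate 4 at 20°C had the highest intestinal (86626 CPM) and body wall muscle (1465 CPM) marker sums of its group. The neuronal sum, *rab-3* included (403.9 CPM), and the coelomocyte sum, *unc-122* included (12.3 CPM), were highest there too. Its sperm (9.48 CPM) and oocyte and eggshell (1234 CPM) sums were the lowest. Replicate 3 at 37°C had the highest intestinal sum of its group (17149 CPM), but no other highest marker sum. Over the 8 rescued libraries, the log2 CPM of *F11C3.1* and *unc-122* had Pearson's r = 0.97 and Spearman's rho = 0.98, given like the next values as a description, because 4 of the 8 are the 20°C libraries behind the choice. For *aex-5*, r was 0.95 and rho 0.90. The values were r = 0.94 and rho = 0.83 for *hlh-30* and r = 0.84 and rho = 0.90 for *rab-3*. *unc-54*, the gene next to *F11C3.1* on the other side, had r = -0.19 and rho = -0.31. Without the 2 libraries farthest from the median of the other gene, r was 0.92 for *unc-122*, 0.78 for *aex-5*, 0.94 for *hlh-30* and 0.74 for *rab-3*. After subtraction of the mean of each temperature, r was 0.97, 0.91, 0.96 and 0.94 in the same order, and for *unc-54* it was 0.52, in the other direction than without the subtraction. Of the 8 libraries, 1 belongs to the deeper libraries of at least 20000000 counts, which is too few for a value within that class. These 5 relations were computed after the values had been seen. The share of all genes with r this high was not computed, so the relations are not shown to be particular to these genes.

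**Figure D3:**
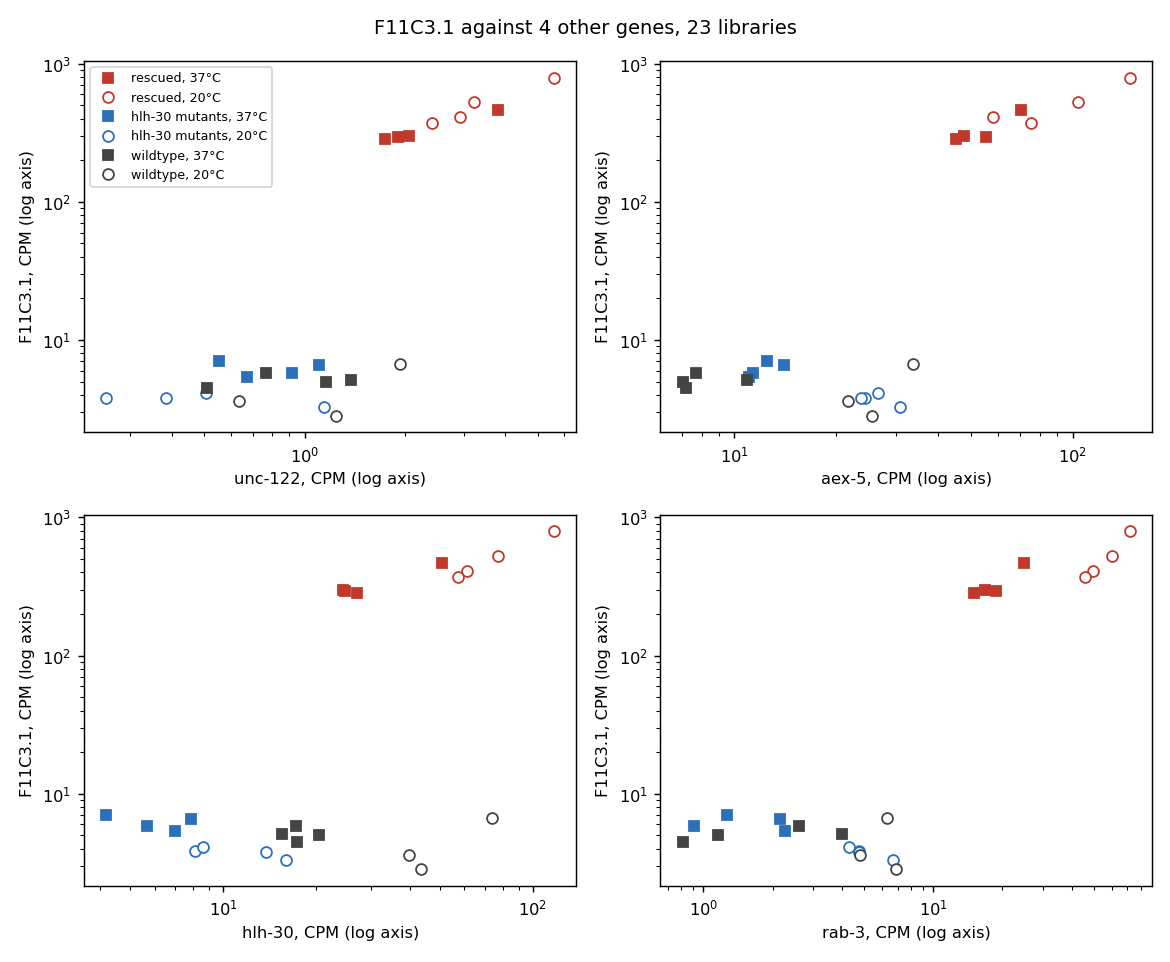
CPM of F11C3.1 against CPM of unc-122, aex-5, hlh-30 and rab-3 in the 23 libraries, both axes logarithmic; colour marks the genotype, filled squares 37°C and open circles 20°C. The 8 rescued libraries form a rising line in each panel, with r from 0.84 for rab-3 to 0.97 for unc-122, while the other 15 libraries lie between 2.84 and 7.04 CPM of F11C3.1.

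Over all 23 libraries, the genes whose log2 CPM was most like that of *F11C3.1* were *K02D10.1* on chromosome III (r = 0.95), the scramblase gene *scrm-4* on chromosome I (r = 0.94) and *C08F11.7* on chromosome IV (r = 0.94). This likeness follows the step between rescued animals and all others, since the same genes had r of -0.41, 0.14 and 0.35 within the 8 rescued libraries and -0.067, 0.23 and 0.068 within the 15 others. These are descriptions over libraries that share genotype and depth.

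The other 3 genes showed another pattern. *F26B1.8* (WBGene00194703) is a protein-coding gene on the plus strand of chromosome I, from 6329536 to 6330181, with 601 bases of exon. At 37°C it was counted at 2.90, 3.65, 5.23 and 9.08 CPM in rescued animals, against 1.88, 0.40, 0 and 0.33 CPM in mutants and 1.22, 0.70, 3.77 and 1.94 CPM in wildtype. The 0 in mutant replicate 3 allows up to 0.25 CPM, the level of 3 counts in that library, a limit that covers counting error only. At 20°C it was at 4.68, 10.2, 7.54 and 7.35 CPM in rescued animals, against 1.07, 0.38, 0.044 and 0.32 CPM in mutants and 1.83, 3.57 and 0.071 CPM in wildtype. All rescued libraries lay above all mutant libraries at each temperature and above wildtype at 20°C, while wildtype replicate 3 at 37°C fell within the rescued range.

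*msrp-2* (WBGene00022751), a gene of 399 bases on the minus strand of chromosome I from 6087366 to 6087764, was at 4.87, 7.46, 9.69 and 13.7 CPM in rescued animals at 37°C, against 2.25, 0.40, 0.17 and 0.17 CPM in mutants and 2.44, 1.62, 9.49 and 6.45 CPM in wildtype. Its values at 20°C were 5.59, 9.69, 9.41 and 7.22 CPM in rescued animals, against 0.84, 0.70, 0.13 and 0.32 CPM in mutants and 2.54, 6.85 and 0.071 CPM in wildtype. Wildtype replicates 3 and 4 at 37°C and replicate 3 at 20°C lay within the range of rescued animals at the same temperature, and no mutant library did.

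*gipc-2* (WBGene00009681), which spans 10026413 to 10027666 of chromosome IV (minus strand, 1156 bases of exon), belongs to the GIPC family of PDZ-domain adaptor proteins, which in mammals link membrane receptors to myosin VI. It was at 9.40, 16.19, 21.98 and 20.69 CPM in rescued animals at 37°C, against 5.06, 1.27, 0.25 and 0.50 CPM in mutants and 2.03, 2.78, 24.3 and 15.3 CPM in wildtype. At 20°C the levels were 12.1, 20.0, 17.8 and 14.2 CPM in rescued animals, against 1.76, 1.52, 0.044 and 0.76 CPM in mutants and 4.23, 11.9 and 0.21 CPM in wildtype. Wildtype again spanned the whole range, with replicate 3 at 37°C above every rescued library and replicate 4 at 20°C near the lowest mutant library. No other gene overlaps any of the 4 members in the annotation of the files.

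At 37°C all 4 genes passed the test of rescued animals against mutants in the direction of rescued animals, beside 16.5% of all genes tested. The log2 fold change was 2.71 ± 0.62 for *F26B1.8* (6.57-fold, edgeR adjusted p = 0.0041). It was 3.28 ± 0.57 for *msrp-2* (9.69-fold, edgeR adjusted p = 0.00073) and 3.05 ± 0.56 for *gipc-2* (8.26-fold, edgeR adjusted p = 0.0011). Mutant replicate 1, the highest mutant library for each of the 3, held these values down: without it they were 4.37, 5.14 and 4.64. No rescued library overlapped a mutant library at 37°C for any of the 4, a separation met by 17.3% of all genes tested, and none did over both temperatures, met by 3.39%.

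Against wildtype at 37°C, *F11C3.1* and *F26B1.8* passed, beside 18.2% of all genes in that direction. *F26B1.8* was higher in rescued animals by 1.38 ± 0.49 (2.61-fold, edgeR adjusted p = 0.042), and the call was lost with 1 fit of all 6 groups (edgeR adjusted p = 0.12), with the depth class as a covariate (edgeR adjusted p = 0.070) and without any of 5 single libraries (edgeR adjusted p = 0.078 to 0.15). Those were rescued replicates 3 and 4 and wildtype replicates 1, 2 and 4. Without rescued replicate 4 its log2 fold change was 0.99. The differences of *msrp-2*, 0.77 ± 0.48, and *gipc-2*, 0.56 ± 0.61, did not pass (edgeR adjusted p = 0.22 and 0.49). Without wildtype replicate 3 that of *msrp-2* was 1.27 (edgeR adjusted p = 0.041). Of the 4 genes, *F11C3.1* was the one in which every rescued library lay above every wildtype library at 37°C, a separation met by 19.5% of all genes.

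Between mutants and wildtype at 37°C none of the 4 passed, beside 0.764% of all genes, and DESeq2 called none either. At an unadjusted p under 0.05, 2 of the 4 were lower in mutants, beside 2470 of the 13482 genes in either direction. The log2 fold changes were -1.38 ± 0.80 for *F26B1.8*, -2.55 ± 0.79 for *msrp-2* and -2.51 ± 0.91 for *gipc-2* (edgeR adjusted p = 0.38, 0.14 and 0.19). With no filter on low counts, *msrp-2* and *gipc-2* passed at -2.57 and -2.54 (edgeR adjusted p = 0.00086 and 0.0013).

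In the comparison behind the choice, at 20°C, the log2 fold changes of rescued animals against mutants were 4.06 ± 0.58 for *F26B1.8*, 3.98 ± 0.45 for *msrp-2* and 3.96 ± 0.59 for *gipc-2*, at ranks 34, 44 and 45 of 13482 genes by size. The rule names no threshold. The gene at the next rank, 46, was *ssq-3* with 3.93 ± 0.58, a sperm-specific gene family member, and 41 genes up to rank 45 are not among the 4. In that contrast 10.1% of all genes passed in the direction of rescued animals and 15.5% separated without overlap. Against wildtype at 20°C the log2 fold changes were 6.87 ± 0.45 for *F11C3.1*, 2.002 ± 0.77 for *F26B1.8*, 1.32 ± 0.84 for *msrp-2* and 1.53 ± 0.82 for *gipc-2*. All but *msrp-2* had every rescued library above every wildtype library there, which 12.5% of all genes had. Mutants against wildtype at 20°C gave -0.21 ± 0.32, -2.04 ± 1.02, -2.67 ± 1.01 and -2.42 ± 1.08 in the same order of genes. These comparisons share libraries with the one behind the choice.

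**Figure D4:**
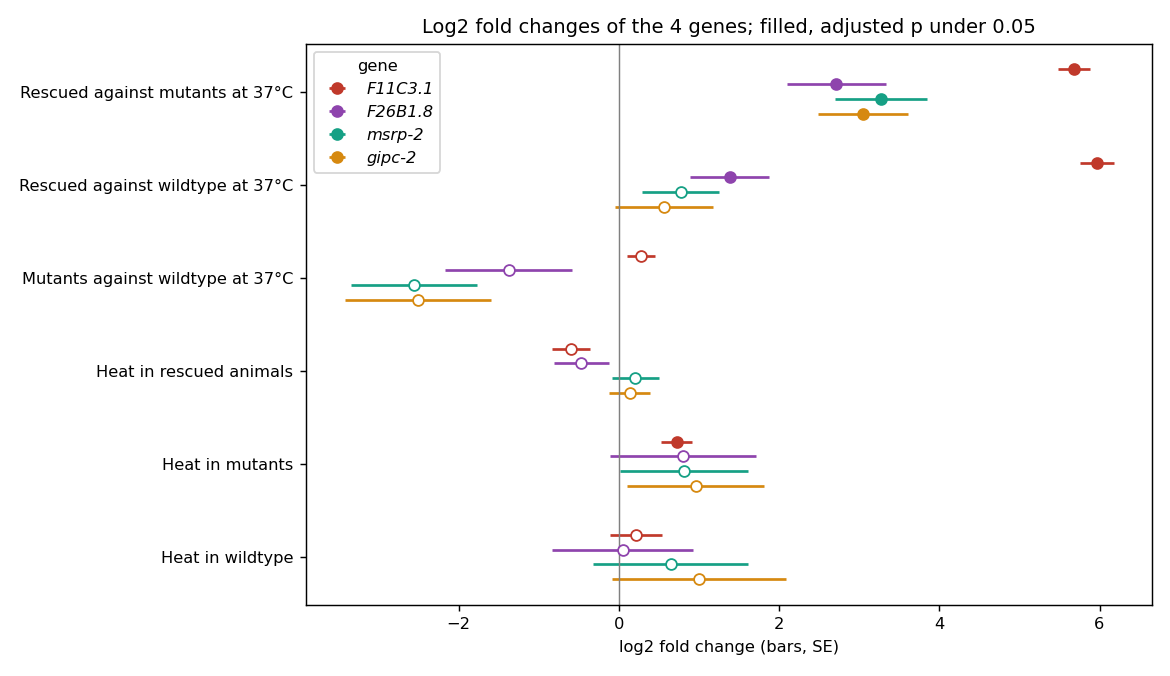
Log2 fold changes with SE for the 4 genes in the 3 genotype comparisons at 37°C and in heat against 20°C within each genotype; filled points have an edgeR adjusted p under 0.05. F11C3.1 stands at 5.68 and 5.97 in both comparisons of rescued animals, and msrp-2 and gipc-2 lie at 3.28 and 3.05 against mutants and at 0.77 and 0.56 against wildtype.

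Heat left *F26B1.8*, *msrp-2* and *gipc-2* without a call in any genotype. In rescued animals at 37°C against 20°C, *F26B1.8* had a log2 fold change of -0.47 ± 0.34, *msrp-2* of 0.21 ± 0.29 and *gipc-2* of 0.14 ± 0.26 (edgeR adjusted p = 0.37, 0.67 and 0.75), while 20.4% of all genes passed. In mutants the values were 0.80 ± 0.91, 0.82 ± 0.80 and 0.96 ± 0.86 (edgeR adjusted p = 0.52, 0.45 and 0.41), while 38.1% of all genes passed. In wildtype, where no library took part in the choice, they were 0.050 ± 0.88, 0.65 ± 0.97 and 1.00 ± 1.08 (edgeR adjusted p = 0.97, 0.64 and 0.51), beside 32.1% of all genes. In mutants and wildtype these SE ran from 0.80 to 1.08 beside differences of 0.050 to 1.00, so that changes of this size were not detectable at this spread, and several of the directions turned when a single library was left out. Of the wildtype libraries, 3 of 4 at 37°C but 0 of 3 at 20°C held at least 20000000 counts. Depth and heat thus largely coincide in wildtype. With the depth class as a covariate, the 3 wildtype values were -0.57, -0.36 and -1.42 in the same order of genes.

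Heat values of *F11C3.1* in mutants and rescued animals are set against the 20°C libraries it was chosen on, a choice that favours low values in those of mutants and high values in those of rescued animals, so their p-values do not stand as independent tests. In mutants its log2 fold change with heat was 0.72 ± 0.19 (1.65-fold, edgeR adjusted p = 0.011), with every library at 37°C (5.37 to 7.04 CPM) above every library at 20°C (3.29 to 4.12 CPM). This call was lost with no filter on low counts (edgeR adjusted p = 0.059). In rescued animals its log2 fold change was -0.60 ± 0.24 and did not pass (edgeR adjusted p = 0.092), with 283.0 to 465.5 CPM at 37°C against 371.9 to 790.9 CPM at 20°C. It passed without rescued replicate 3 at 37°C, at -0.84 (edgeR adjusted p = 0.035), with the depth class as a covariate, at -0.82 (edgeR adjusted p = 0.033), with no filter on low counts, at -0.63 (edgeR adjusted p = 0.0020), and in 1 fit of all 6 groups, at -0.65 (edgeR adjusted p = 0.032). In wildtype it was 0.22 ± 0.32 (edgeR adjusted p = 0.64). The difference of the heat responses was -1.38 ± 0.33 for rescued animals minus mutants and -0.88 ± 0.35 for rescued animals minus wildtype, neither past the threshold (edgeR adjusted p = 0.14 each), in tests that called 0.0445% and 3.07% of all genes. For the other 3 genes these differences ranged from -1.33 to -0.52, with edgeR adjusted p from 0.65 to 0.86. All differences of heat responses use 20°C libraries behind the choice, which favours negative values. Their p-values are therefore not independent of it either.

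Markers of sperm moved with *F26B1.8*, *msrp-2* and *gipc-2*. The summed level of 5 sperm markers (*msp-142*, *msp-19*, *spe-11*, *gsp-3* and *gsp-4*) was 8.20, 10.9, 15.2 and 16.5 CPM in rescued animals at 37°C, against 3.39, 0.71, 0.17 and 0.75 CPM in mutants and 5.29, 2.94, 25.8 and 17.3 CPM in wildtype. At 20°C it was 9.98, 17.8, 14.3 and 9.48 CPM in rescued animals, against 1.69, 1.71, 0.18 and 1.72 CPM in mutants and 4.72, 22.7 and 0.071 CPM in wildtype. Mutant replicate 1 and wildtype replicate 3 at 37°C and wildtype replicate 3 at 20°C were the highest of their groups for these markers and for each of the 3 genes, and wildtype replicate 4 at 20°C was the lowest of its group for all of them. Up to 4 of the 5 markers were at 0 in single mutant or wildtype libraries, none in a rescued library, and none in a whole group. All 5 were higher in rescued animals than in mutants at 37°C, with a median log2 fold change of 2.82 beside -0.0026 over all genes tested. Against wildtype none of the 5 passed with edgeR, at an unadjusted p under 0.05 or with DESeq2 (median -0.17 beside -0.042). Between mutants and wildtype edgeR called none, whereas 5 of 5 were lower in mutants at an unadjusted p under 0.05 and 4 of 5 with DESeq2. At that unadjusted p, 2470 of the 13482 genes passed between mutants and wildtype at 37°C in either direction.

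The *msp* genes gave the same picture: 27 of 27 tested were higher in rescued animals than in mutants at 37°C (median 2.74), and 0 of 27 passed against wildtype with edgeR, at an unadjusted p under 0.05 or with DESeq2. Of 5 intestinal markers, 4 were higher in rescued animals than in mutants at 37°C, with summed levels of 12558 to 17149 CPM in rescued libraries and 2908 to 11256 CPM in mutant libraries, and their part in the differences of the 4 genes was not tested. Of 6 oocyte and eggshell genes, 0 were higher and 2 lower in rescued animals than in mutants with edgeR, 0 were higher at an unadjusted p under 0.05, and 0 were higher and 1 lower with DESeq2. Of 14 neuronal markers, *rab-3* included, 6 were higher and 1 lower with edgeR. Of 17 autophagy, lysosome and HLH-30 target genes, 6 were higher and 3 lower, beside 16.5% and 20.3% of all genes, with a median of 0.086.

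Within each genotype the relation of the 3 genes with the sperm markers was close. Pearson's r of log2 CPM with the log2 summed level ranged from 0.75 to 0.99 over the 9 combinations of these genes with the 3 genotypes (n = 8, 8 and 7 libraries), and Spearman's rho from 0.64 to 0.96. In rescued animals and mutants 4 of the 8 libraries are those behind the choice, and the values there are descriptions. In wildtype, with 7 libraries outside the choice, r was 0.97 for *F26B1.8*, 0.99 for *msrp-2* and 0.97 for *gipc-2*, with rho of 0.96, 0.96 and 0.86. These wildtype values are descriptions too, and their exact permutation p-values are not given. The permutation shuffled libraries of both temperatures together, although temperature may shift either level. Its adjustment over 12 relations also took in those of rescued animals and mutants, which use libraries behind the choice. Without the 2 libraries farthest from the median of the sperm markers, r ranged from 0.46 to 0.99. Within the libraries under 20000000 counts, 7 of rescued animals and 6 of mutants, it ranged from 0.75 to 0.92, and wildtype had 4 such libraries, too few for a value. For *F11C3.1* r was 0.018 in rescued animals, 0.13 in mutants and -0.48 in wildtype, with rho of 0.048, 0.048 and -0.29, likewise as descriptions.

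**Figure D5:**
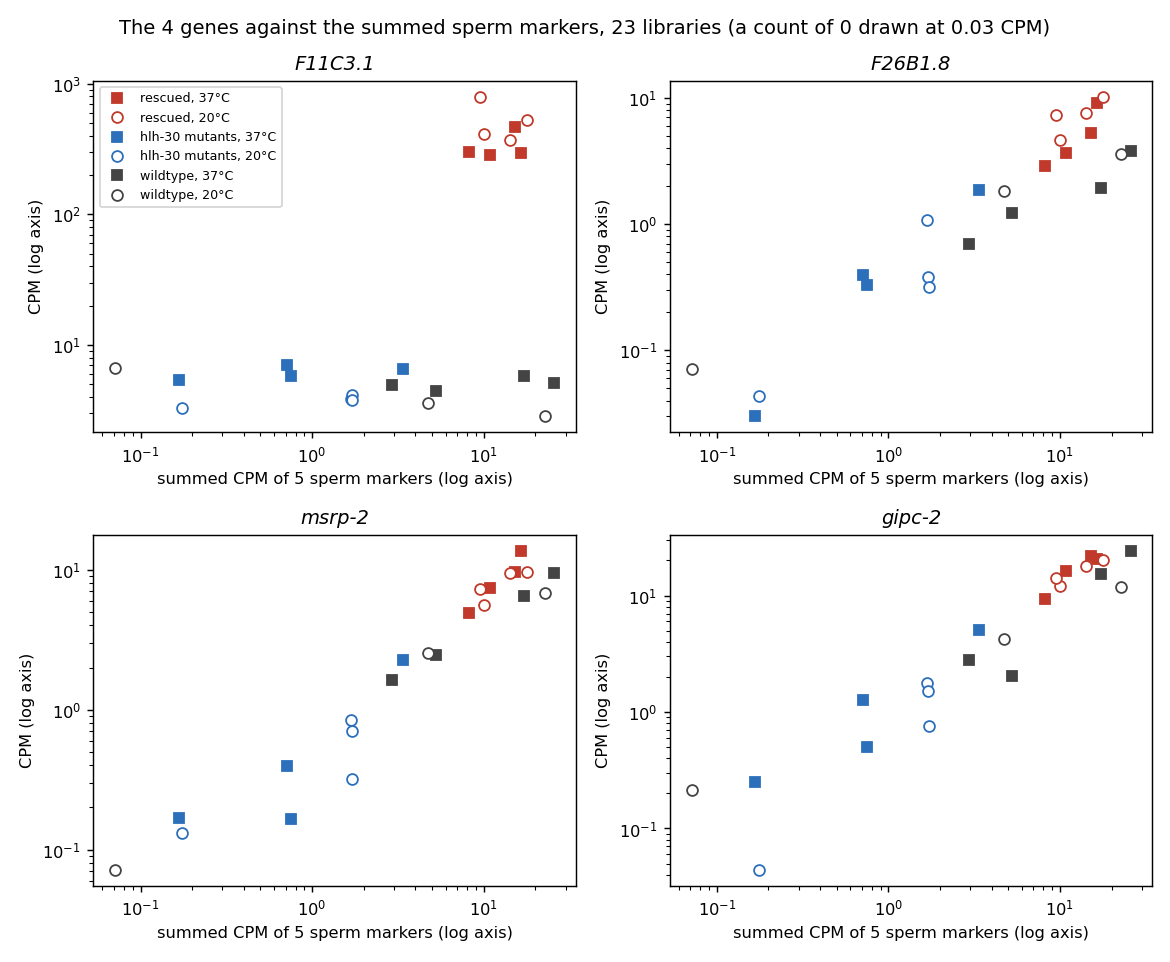
CPM of each of the 4 genes against the summed CPM of 5 sperm markers in the 23 libraries, both axes logarithmic; colour marks the genotype, filled squares 37°C and open circles 20°C. F26B1.8, msrp-2 and gipc-2 rise along the axis in every genotype, while F11C3.1 lies between 283.0 and 790.9 CPM in rescued libraries and between 2.84 and 7.04 CPM in the others at any level of the markers.

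With the log2 summed sperm level added as a covariate, an alternative chosen after seeing the data, *F11C3.1* stood at 5.31 ± 0.50 between rescued animals and mutants at 37°C (edgeR adjusted p = 0.00040). In the same fit *F26B1.8*, *msrp-2* and *gipc-2* were at -1.52 ± 0.80, -0.68 ± 0.63 and -0.79 ± 0.57 (edgeR adjusted p = 0.68, 0.83 and 0.76), and 5 genes passed in all. The sperm level itself did not overlap between these groups, so genotype and sperm level cannot be told apart there. Rescued animals and wildtype did overlap in it. In that comparison at 37°C all 4 genes passed with the covariate, beside 23.3% of all genes in that direction, with *F26B1.8* at 1.30 ± 0.28, *msrp-2* at 0.71 ± 0.19 and *gipc-2* at 0.66 ± 0.21 (edgeR adjusted p = 0.0023, 0.0086 and 0.021) and *F11C3.1* at 5.94 ± 0.21 (edgeR adjusted p = 2.3e-09).

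The genes most like these 3 over the 23 libraries, given as a description, lay on several chromosomes. For *F26B1.8* they were *nspd-5* (r = 0.98) and *nspd-7* (r = 0.97), of a family of small nematode-specific peptides, and *msd-4* (r = 0.97), of the major sperm protein domain family. For *msrp-2* they were *C15C6.2* (r = 0.99), *C33F10.1* (r = 0.98) and *ZK938.1* (r = 0.98). For *gipc-2* the first was its relative *gipc-1* (r = 0.99), before WBGene00011748 and *R09E10.6* (r = 0.99 each). The 3 genes were as close to each other, with r of 0.96 to 0.98, and *F11C3.1* had r of 0.65 to 0.72 with them.

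*gipc-1*, the other GIPC gene, lies on chromosome III from 4870762 to 4872046 and was at 8.88 to 21.9 CPM in rescued animals at 37°C, against 0.50 to 4.37 CPM in mutants and 1.53 to 16.7 CPM in wildtype. It was higher in rescued animals than in mutants by 2.96 ± 0.47 (edgeR adjusted p = 0.00042) and differed from wildtype by 0.95 ± 0.58 (edgeR adjusted p = 0.22). Of the 6 other *msrp* genes, on chromosomes I and II, *msrp-5* passed the filter on counts, with 0.85 to 2.44 CPM in rescued animals and 0 to 0.53 CPM in mutants at 37°C (log2 fold change 3.01 ± 0.73, edgeR adjusted p = 0.0058). Its average of 15.7 counts over the 23 libraries passed that filter only through the rescued libraries, where it was high. Its difference is therefore given as a description. How reads that match several members of a family were counted is not given in the sources used here.

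Beside *msrp-2*, 3 genes within 12.5 kb on one side were higher in rescued animals than in mutants at both temperatures: *nspd-1* (2.58 ± 0.58 at 37°C), the sperm chromatin gene *spch-3* (3.22 ± 0.63) and *T27A3.5* (4.44 ± 0.67), with edgeR adjusted p from 0.00031 to 0.0037. *T27A3.5*, with an average of 14.5 counts, passed the filter on counts only through the rescued libraries. *spch-3* was at 1.88 to 2.75 CPM in rescued animals, against 0 to 0.61 CPM in mutants and 0.77 to 3.90 CPM in wildtype at 37°C, so its wildtype libraries also reached the rescued range. The nearest tested genes of *msrp-2* were mixed at 37°C: *haf-9*, an ABC half-transporter 1403 bases away, was higher by 0.98 ± 0.15 (edgeR adjusted p = 0.00037), and *ZK484.6*, at 2250 bases, differed by -0.20 ± 0.42 (edgeR adjusted p = 0.74). *mbd-2* was lower in rescued animals at both temperatures (-0.75 ± 0.16 at 37°C, edgeR adjusted p = 0.0022).

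Beside *gipc-2*, *msd-2*, a major sperm protein domain gene 1388 bases away, was at 2.73 to 6.18 CPM in rescued animals and 0 to 1.06 CPM in mutants at 37°C (log2 fold change 3.27 ± 0.55, edgeR adjusted p = 0.00059), and on the other side *ent-7*, a nucleoside transporter family gene, differed by 0.055 ± 0.14 (edgeR adjusted p = 0.79). *C47E12.2* was lower at both temperatures (-1.06 ± 0.14 at 37°C, edgeR adjusted p = 0.00019). Beside *F26B1.8*, the forkhead factor *let-381* was higher at both temperatures (2.29 ± 0.55 at 37°C, edgeR adjusted p = 0.0056, on an average of 12.9 counts), *bli-4*, a proprotein convertase, differed by 0.053 ± 0.11 (edgeR adjusted p = 0.75), and *K04F10.3* was lower at both (-0.86 ± 0.15, edgeR adjusted p = 0.00064).

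In all, 10 of the 40 nearest genes of the 4 members were higher in rescued animals than in mutants at 37°C and 4 were lower, beside 16.5% and 20.3% of all genes, and 9 of 40 were higher at 20°C, beside 10.1%. Both counts of higher genes include *T27A3.5* and *let-381*, which passed the filter on counts only through the rescued libraries, where they were high. Within 100 kb the genes higher at 37°C were 7 of 26 around *F11C3.1*, 6 of 31 around *F26B1.8*, 9 of 43 around *msrp-2* and 11 of 35 around *gipc-2*. The part of gene position in these differences, and that of the injected DNA in the counts of *F11C3.1*, was not tested.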

How the data were processed

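Whole-animal RNA-seq of 3 genotypes at 37°C or 20°C was used. Per the sources, reads were trimmed with Trimmomatic, mapped to WBcel235 with STAR and counted with featureCounts of Subread, and the deposited values are the authors' raw counts per gene. For wildtype at 20°C, the file of replicate 1 was left out, because its header gives a different library, wildtype replicate 4 at 37°C, whose 46756 counts it repeats. This left 23 libraries. Groups and replicates follow the labels.

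Genes with a mean of at least 10 counts were compared by quasi-likelihood testing in edgeR 4.0.16 (R 4.3.3, TMM, Benjamini-Hochberg, threshold 0.05) on the libraries compared, and heat differences in a model of 6 groups. Log2 CPM used a prior count of 2, and sperm sums an offset of 0.5. Exact permutation tests of the relations with sperm markers used scipy 1.17.1, and their p-values are not given. The fit was tested on simulated data. Alternatives were DESeq2 1.42.0, other scalings, no filter, 1 fit of all groups, a depth class at 20000000 counts, a threshold of 0.01, a replicate block, leaving out each replicate and, chosen after seeing the data, a sperm covariate.

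The members and lists were chosen with earlier results of these data known. Named are the members, their 5 nearest tested genes on each side (the nearest, and those past the threshold at both temperatures), *hlh-30*, *rab-3*, *unc-122*, *unc-54* and *aex-5*, genes sharing a member's family name, and the 3 genes most like each member. Also named are the nearest genes of *rab-3* and *unc-122*, the next gene by rank at 20°C and the marker lists. *ptr-23*, *kin-1*, *str-245*, *damt-1* and *C40A11.8* were named after their values were seen. A motif search was not run.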

Additional observations from a re-analysis of the deposited data

Results flagged for a closer look

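In 20 combinations of a member and a group of 4 libraries, 2 held a library that stood apart from the rest, with a gap to the nearest library above 0.829 of the group's range. Chance gives about 1 in 20. *F11C3.1* was at 465.5 CPM in rescued replicate 3 at 37°C, the deepest rescued library, beside 283.0 to 298.4 CPM in the other replicates of that group. The same library held the highest *unc-122*, *hlh-30*, *rab-3* and *aex-5* of its group, and the highest intestinal marker sum (17149 CPM) but no other highest marker sum. *msrp-2* was at 2.25 CPM in mutant replicate 1 at 37°C, beside 0.17 to 0.40 CPM in the other 3, and that library also held the highest sperm marker sum of the mutants, 3.39 CPM.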

How the results depend on the processing

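Of 624 values of the 4 genes under the alternatives other than the sperm covariate, 586 kept their direction and their side of the threshold, 10 lost a call, 10 gained one and 18 turned. The 624 include rescued against mutants at 20°C, the comparison behind the choice. There each gene kept 16 of 16, which the choice favours and which is no sign of stability. *F11C3.1* passed in both comparisons of rescued animals at 37°C under every alternative run, with log2 fold changes of 5.31 to 6.22, and the other 3 passed against mutants under every one except that covariate. For heat in rescued animals *F11C3.1* passed with the depth class (-0.82), with no filter (-0.63) and in 1 fit of all groups (-0.65), and its difference of heat responses from mutants passed with DESeq2 (-1.33) and with no filter (-1.35). Both use the 20°C libraries behind the choice, which favours negative values here, so these calls are not independent tests. The values that turned were uncalled ones in heat fits. With the depth class they were -0.027 for *gipc-2* in rescued animals, -0.57, -0.36 and -1.42 for *F26B1.8*, *msrp-2* and *gipc-2* in wildtype, and 0.043 for *msrp-2* in rescued minus wildtype. With library size alone *F26B1.8* was at -0.061 in wildtype. Leaving out single libraries gave ranges of -0.063 to 0.40 for *msrp-2* and -0.047 to 0.34 for *gipc-2* in rescued animals, -0.76 to 1.64, -0.93 to 1.19 and -0.53 to 1.36 for *F26B1.8*, *msrp-2* and *gipc-2* in mutants, -0.014 to 0.68 for *F11C3.1* and -0.51 to 0.98 for *F26B1.8* in wildtype. For rescued minus mutants they were -2.16 to 0.24, -1.06 to 1.08 and -1.31 to 0.60 for *F26B1.8*, *msrp-2* and *gipc-2*, and for rescued minus wildtype -1.78 to 0.051 for *msrp-2*. Mutant replicate 1 at 37°C set the turned end in mutants and in rescued minus mutants. With the sperm covariate the 3 genes were at -1.52, -0.68 and -0.79 for rescued against mutants at 37°C and at 1.12, 0.075 and 0.92 for mutants against wildtype, *gipc-2* at -0.34 for rescued against mutants at 20°C and *F26B1.8* at -0.45 for heat in wildtype. The cause of these changes was not tested.

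Counts of genes past the threshold at 37°C were 4965 for rescued against mutants, 5409 for rescued against wildtype and 103 for mutants against wildtype, 2756, 5138 and 4328 for heat in rescued animals, mutants and wildtype, 6 and 414 for rescued minus mutants and rescued minus wildtype, and 3121 for rescued against mutants at 20°C. At 0.01 they were 2971, 3161, 49, 1368, 3283, 2021, 0, 53 and 1716 in the same order. With the sperm covariate rescued against mutants had 5 at 37°C and 3 at 20°C, and mutants against wildtype 58. Mutants against wildtype had 651 with DESeq2, 649 with no filter, 535 in 1 fit of all groups, 55 with the depth class and 55 to 198 without single libraries. Heat in wildtype had 1350 with the depth class, and heat in rescued animals 1780 to 3524 without single libraries. Rescued minus mutants had 76 with DESeq2, 90 with no filter and 0 to 16 without single libraries, and at an unadjusted p under 0.05 it had 1301. Rescued minus wildtype had 958 with DESeq2, 815 with the depth class, 763 with no filter and 93 to 1513 without single libraries.

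Replicate numbers did not pair the libraries throughout: in 0 of 7 comparisons did every same-numbered pair correlate above 0.1 (r from -0.20 to 0.48), and in 0 did every library correlate best with its own number. Of the 27 libraries checked, 12 did correlate best with their own number, so pairing of some libraries is not excluded. Outside the 7 comparisons, replicate 4 of rescued animals and wildtype at 20°C had r = 0.58. With the replicate block the counts were 18 for rescued minus mutants and 634 for rescued minus wildtype, the other counts stayed within 1.5 times, and among the members *msrp-2* alone changed its call, to 0.98 against wildtype at 37°C (edgeR adjusted p = 0.039). Low counts limit *F26B1.8*, *msrp-2* and *gipc-2* in mutants, with as few as 0, 2 and 1 per library.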
